A study of Mus musculus with 12 samples.

Results

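The genes described here are 10 genes of the circadian clock, chosen by symbol: the activators Arntl, Clock and Npas2, the repressors Per1, Per2, Cry1 and Nr1d1, and the output transcription factors Dbp, Tef and Nfil3. All 10 were found once each among the 59136 entries of the count table, under their GENCODE M21 symbols (Arntl is the older symbol of Bmal1). They were measured by messenger RNA sequencing of mouse lung in 12 libraries labelled day 28. 6 libraries are labelled WT (replicates 1, 3, 4, 5, 6 and 7). The other 6 are labelled Mut (replicates 1, 2, 3, 4, 5 and 7), from mice with the Iars1 genotype Tyr148Cys/Arg444*, that is, one allele with cysteine in place of tyrosine 148 and one with a stop codon in place of arginine 444, in the gene of the cytosolic isoleucyl-tRNA synthetase. The sample labels call this genotype a knockdown and the material primary cells of lung. They name no strain, sex, time of day at collection or feeding state, and they do not say that each library is a separate mouse, so p-values measure only the spread between these samples.

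The clock is a feedback loop of transcription factors that runs in nearly every cell, lung included. ARNTL pairs with CLOCK or its relative NPAS2 and switches on genes through E-boxes, among them Per, Cry, Nr1d1 and Dbp, and PER and CRY proteins then shut this pair down. In a further loop the nuclear receptor REV-ERB alpha, the product of Nr1d1, represses genes that carry a ROR element, and the ROR receptors activate the same genes; Arntl, Npas2, Clock, Cry1 and Nfil3 are known targets. DBP and TEF activate genes through the D-box, and NFIL3 represses them from the same site. Genes driven by E-boxes and genes held down by REV-ERB alpha therefore peak at opposite times of day in mouse tissues, and the transcripts of Arntl and of Dbp or Nr1d1 are commonly read against each other.

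The control sequences of these loops are shown first, and the results below are ordered by the role of each gene. RefSeq promoter windows (build GRCm38.p6, 250 bases before to 50 after an annotated start site) were found for 9 of the 10 members, all but Per2. On both strands, 3 of these 9 genes held the palindromic E-box CACGTG, against 8.09% of 27025 genes with a window. The E-box of Cry1 began 60 bases before the start site, that of Per1 166 bases before, and those of the start sites of Tef 127 and 138 bases before. Bhlhe41, a clock repressor outside the 10, is shown because it fell in the Mut-labelled libraries. Its E-box began 153 bases before. Ciart, also a clock repressor outside the 10, held 3 E-boxes, 116, 58 and 44 bases before, and was not called. A ROR element was matched in 1 member, Arntl, 26 bases after 1 of its start sites, against 0.459% of all genes. The D-boxes TTATGTAA and TTACGTAA were matched in none of the 9, against 1.11% and 0.126% of genes, and neither was the cyclic AMP response element TGACGTCA (2.03%). A match describes letters in this window and does not show a working site. In the stretches below, each written along the gene's strand, capitals mark the E-box or the ROR element.
Cry1, chr10:85185079-85185144, minus strand: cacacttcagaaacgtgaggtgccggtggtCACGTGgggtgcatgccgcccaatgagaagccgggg
Per1, chr11:69098753-69098818, plus strand: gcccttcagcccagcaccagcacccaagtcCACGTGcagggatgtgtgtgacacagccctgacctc
Tef, first start site, chr15:81802516-81802581, plus strand: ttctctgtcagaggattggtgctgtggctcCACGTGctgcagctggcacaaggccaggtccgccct
Tef, other start site, chr15:81811246-81811311, plus strand: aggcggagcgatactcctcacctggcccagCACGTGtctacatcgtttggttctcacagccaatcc
Bhlhe41, chr6:145865538-145865603, minus strand: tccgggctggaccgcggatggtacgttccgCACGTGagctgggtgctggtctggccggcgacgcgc
Arntl, chr7:113207528-113207557, plus strand: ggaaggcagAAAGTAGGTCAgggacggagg

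Library totals ran from 17118716 to 24014890 counted reads. Genes were compared with edgeR's quasi-likelihood test, Mut against WT, over 19004 genes that passed a filter on low counts, and a gene was called at a Benjamini-Hochberg adjusted p under 0.05; this called 869 genes higher (4.57%) and 1010 lower (5.31%), 9.89% in all. CPM (counts scaled to a common library size, with TMM factors) is the unit below unless FPKM is named, errors are SD over the 6 libraries of a group, and a positive log2 fold change means a higher level in Mut (SE, its standard error). The Iars1 transcript (annotated as Iars) averaged 44.9 ± 8.57 CPM over WT and 55.0 ± 10.7 CPM over Mut libraries and was not called (adjusted p = 0.189); a gene total does not tell the alleles apart. Markers of lung epithelium and endothelium were abundant in every library, with summed levels of 20365 to 30299 CPM in WT and 18577 to 33355 CPM in Mut, and 0 of these 8 genes were called. WT replicate 1 stood apart from the other WT libraries in Nr1d1 and in genes that glucocorticoid hormones induce. Results that rest on it are given with and without it.

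More of the 10 members were higher than lower in the Mut-labelled lungs. This did not hold for 17 other clock genes, described below, of which 6 had a positive and 11 a negative log2 fold change. Of the 10 members, which all passed the filter, 5 rose (Clock, Npas2, Per2, Cry1 and Nfil3) and 1 fell (Nr1d1). Against this, 4.57% and 5.31% of all tested genes were called in these directions. Arntl and Dbp missed the threshold narrowly, one higher and one lower in Mut, and Per1 and Tef lay close to 0. The median log2 fold change was 0.45 over the members and 0.01 over all tested genes. The members were chosen with earlier results of these data known, so these contrasts with all genes are a description and not a test. In none of the 10 members did all 6 libraries of one group lie beyond all 6 of the other, a pattern seen in 4.58% of all tested genes.

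**Figure D1:**
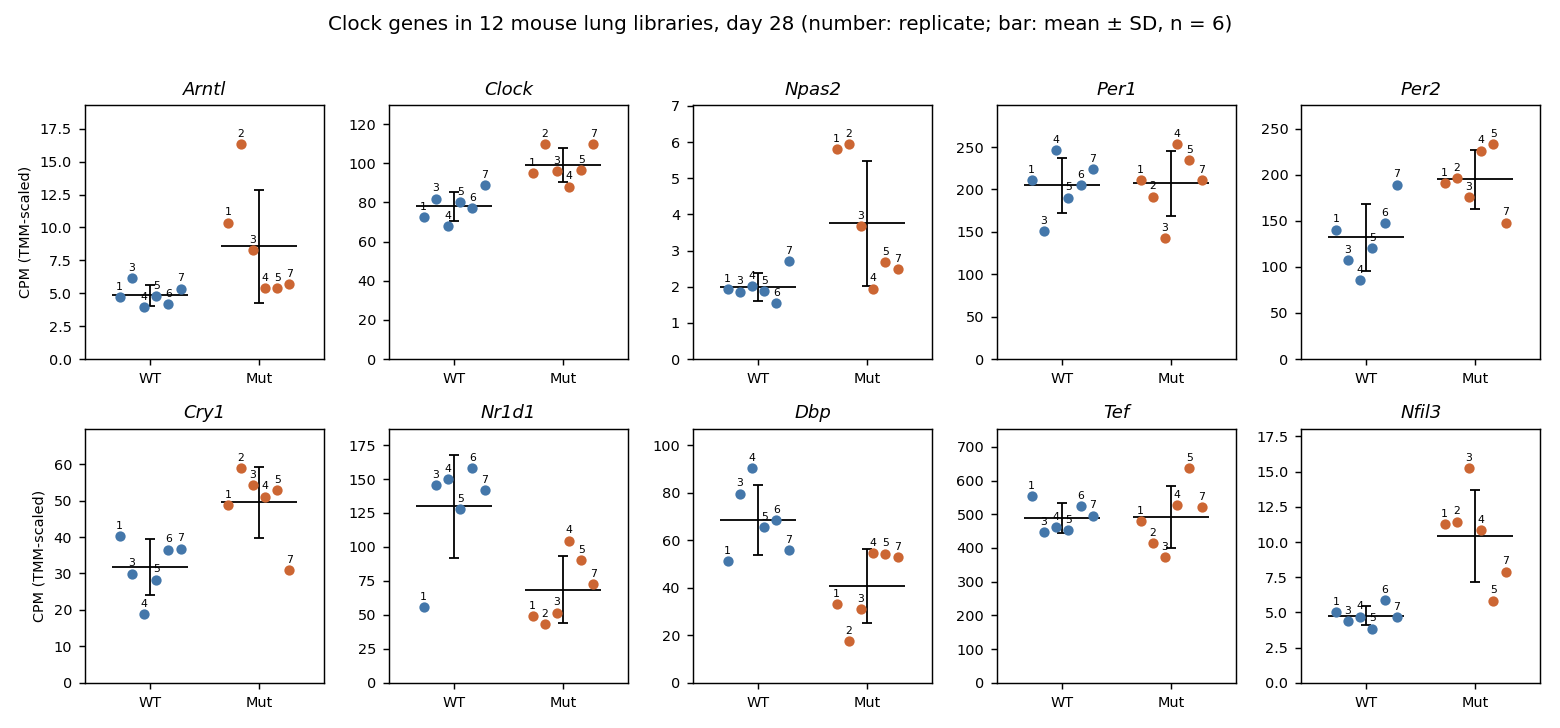
CPM (TMM-scaled counts, linear axis from 0) of the 10 clock genes in each library, WT in blue and Mut in orange; numbers are replicates, the horizontal bar is the mean and the whiskers are 1 SD (n = 6). Clock, Cry1 and Nfil3 lie above every WT library in 5 of 6 Mut libraries, and Arntl, Npas2, Nr1d1 and Dbp depart furthest from WT in Mut replicates 1, 2 and 3.

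Per unit of gene length, Tef was the most abundant member and Npas2 the least. In WT the mean levels fell in the order Tef (63.3 ± 5.67 FPKM), Nr1d1 (42.9 ± 12.3), Per1 (37.0 ± 5.43), Dbp (23.3 ± 4.88), Per2 (22.9 ± 6.24), Cry1 (9.71 ± 2.41), Clock (5.80 ± 0.581), Nfil3 (2.39 ± 0.338), Arntl (0.658 ± 0.115) and Npas2 (0.422 ± 0.0810). The ranges of Nr1d1 and Per1, of Per1 and Dbp, of Dbp and Per2, of Cry1 and Clock and of Arntl and Npas2 overlapped. Within every WT library, though, Per1 read above Dbp, Cry1 above Clock and Arntl above Npas2. The order of Dbp and Per2 changed between libraries, and Nr1d1 read below Per1 in WT replicate 1 alone, so the order in these pairs is not resolved. In Mut the mean of Nr1d1 was 21.8 ± 7.90 FPKM and that of Per2 was 32.5 ± 5.37 FPKM, which put their means in ranks 4 and 3, against 2 and 5 in WT. The Mut ranges of Per1 and Per2, of Per2 and Nr1d1 and of Nr1d1 and Cry1 overlapped. Per2 read above Nr1d1 in every Mut library. The order of Per1 and Per2 and that of Nr1d1 and Cry1 changed between Mut libraries, so these ranks are not resolved. Arntl and Npas2 rested on few reads, 69 to 305 and 28 to 111 per library, against 7208 to 12130 for Tef.

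Of the 3 activators, Clock and Npas2 rose and Arntl was higher without passing. Arntl (chromosome 7, 113207465 to 113314126, plus strand, GRCm38) encodes the obligate partner of the other 2. It ranged from 3.96 to 6.13 CPM in WT (median 4.75) and from 5.36 to 16.3 CPM in Mut (median 6.96). Mut replicates 1, 2 and 3 lay above every WT library and the other 3 within the WT range. The log2 fold change was 0.81 (SE 0.25, adjusted p = 0.0541), and it was called without Mut replicate 4, 5 or 7 (adjusted p down to 0.0354). Without Mut replicate 2, the library with the highest level, it was 0.53 (adjusted p = 0.112). Npas2 (chromosome 1, 39193731 to 39363236, plus strand), the relative of Clock, followed the same libraries, from 1.54 to 2.70 CPM in WT and from 1.94 to 5.94 CPM in Mut. Again Mut replicates 1, 2 and 3 were above all WT libraries and the rest overlapped with WT. It rose by a log2 fold change of 0.91 (SE 0.27, adjusted p = 0.0426), and was no longer called when any of WT replicates 1, 3, 4, 5 and 6 and Mut replicates 1, 2 and 3 was left out (0.74 to 0.92, adjusted p up to 0.0975).

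Clock moved less, but more evenly. Clock (chromosome 5, 76209868 to 76304792, minus strand) encodes the main partner of ARNTL. It ranged from 68.1 to 89.0 CPM in WT (median 78.7) and from 88.1 to 109.8 CPM in Mut (median 96.2). 5 of 6 Mut libraries were above every WT library, and the ranges met only at Mut replicate 4 and WT replicate 7. The log2 fold change was 0.34 (SE 0.08, adjusted p = 0.0175), called without any 1 library (0.31 to 0.38, adjusted p up to 0.0459).

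Among the repressors, Per2 and Cry1 rose, Nr1d1 fell and Per1 was level. Per1 and Per2 encode the PERIOD proteins and Cry1 a cryptochrome, which together block CLOCK and ARNTL. Per1 (chromosome 11, 69095217 to 69109960, plus strand) ranged from 151 to 247 CPM in WT and from 142 to 253 CPM in Mut. The groups overlapped almost wholly, with a log2 fold change of 0.02 (95% confidence interval −0.26 to 0.30, adjusted p = 0.947, edgeR quasi-likelihood test). Per2 (chromosome 1, 91415982 to 91459324, minus strand) ranged from 85.9 to 189 CPM in WT (median 131) and from 148 to 233 CPM in Mut (median 194). 4 of 6 Mut libraries were above every WT library, and WT replicate 7 was the one WT library inside the Mut range. Per2 rose by a log2 fold change of 0.56 (SE 0.16, adjusted p = 0.0388), which was lost when any of WT replicates 3, 4, 5 and 6 and Mut replicates 1, 2, 4 and 5 was left out (0.47 to 0.60, adjusted p up to 0.0855).

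Cry1 (chromosome 10, 85131700 to 85185064, minus strand) ranged from 18.9 to 40.3 CPM in WT (median 33.2) and from 30.9 to 58.9 CPM in Mut (median 52.0). 5 of 6 Mut libraries lay above every WT library, and Mut replicate 7, at 30.9 CPM, lay inside the WT range. It rose by a log2 fold change of 0.64 (SE 0.17, adjusted p = 0.0300), a call lost on leaving out WT replicate 3 or 5, or Mut replicate 1, 2 or 5 (0.58 to 0.64, adjusted p up to 0.0719).

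Nr1d1 (chromosome 11, 98767932 to 98775333, minus strand), the gene of REV-ERB alpha, had the largest decrease of the members. WT replicates 3, 4, 5, 6 and 7 read 145, 149.8, 128, 158 and 142 CPM and WT replicate 1 read 55.8 CPM. Mut replicates 1, 2, 3, 4, 5 and 7 read 49.3, 43.0, 51.7, 105, 90.5 and 72.5 CPM. All 6 Mut libraries were thus below the 5 higher WT libraries, and 3 of them below WT replicate 1 as well. Nr1d1 fell by a log2 fold change of −0.92 (SE 0.26, adjusted p = 0.0399), and by −1.08 without WT replicate 1 (adjusted p = 0.00470). The call also held when Mut replicate 4 or 5 was left out, and was lost on leaving out any other library (−0.94 to −0.82, adjusted p up to 0.0940). Nr1d1 shares 263 of its 3077 exon bases with Thra, the thyroid hormone receptor alpha gene on the opposite strand. The labels' protocol names no step that marks the strand, so reads there cannot be assigned to one gene. Thra also fell, from 102 ± 12.3 CPM to 78.4 ± 8.03 CPM (−0.38 on the log2 scale, SE 0.09, adjusted p = 0.0194, but 0.020 with a B-cell and T-cell marker covariate); its part in the Nr1d1 value was not tested.

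The 3 output factors differed among themselves: Nfil3 rose most of all members, Dbp was lower without passing and Tef was level. Nfil3 (chromosome 13, 52967209 to 52981073, minus strand) encodes the D-box repressor. It ranged from 3.85 to 5.90 CPM in WT (median 4.68) and from 5.83 to 15.3 CPM in Mut (median 11.1). 5 of 6 Mut libraries were above every WT library, and Mut replicate 5 overlapped with WT replicate 6 alone. Nfil3 rose 2.19-fold (log2 fold change 1.13, SE 0.19, adjusted p = 0.00342), and the call held without any 1 library (0.99 to 1.25, adjusted p up to 0.0124).

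Dbp (chromosome 7, 45705088 to 45710203, plus strand) and Tef (chromosome 15, 81802421 to 81826863, plus strand) encode the D-box activators. Dbp ranged from 51.2 to 90.4 CPM in WT (median 67.0) and from 17.6 to 54.6 CPM in Mut (median 43.0). Mut replicates 1, 2 and 3 (33.2, 17.6 and 31.0 CPM) lay below every WT library, and the other 3 lay between 52.9 and 54.6 CPM, level with the lowest WT libraries. The log2 fold change of −0.75 (SE 0.24, adjusted p = 0.0590) did not pass. It was called without WT replicate 1 (−0.82, adjusted p = 0.0485) or Mut replicate 4 (−0.87, adjusted p = 0.0420). Dbp shares 539 of 2993 exon bases with Sphk2 on the opposite strand, whose own log2 fold change was 0.20 (adjusted p = 0.211). Tef ranged from 447 to 553 CPM in WT and from 374 to 637 CPM in Mut. Its Mut range held the whole WT range, and the log2 fold change was 0.01 (95% confidence interval −0.24 to 0.26, adjusted p = 0.971, edgeR).

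**Figure D2:**
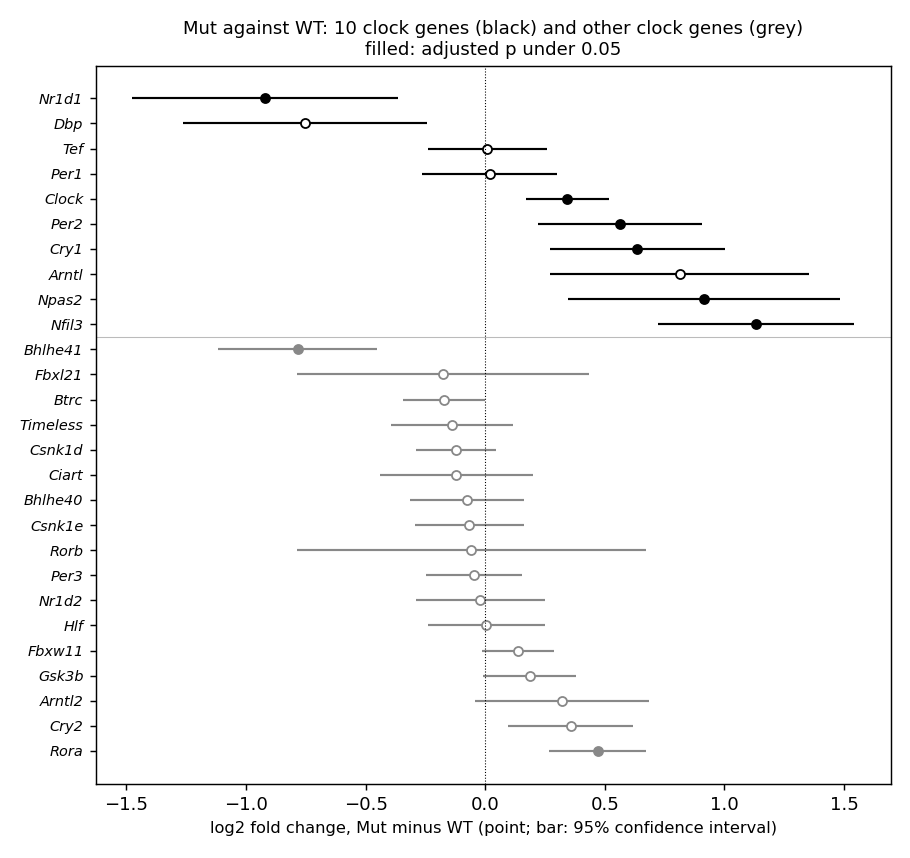
Log2 fold change, Mut minus WT, with its 95% confidence interval for the 10 clock genes (black) and 17 other clock genes (grey), each sorted by value; filled points have an adjusted p under 0.05 (edgeR quasi-likelihood test). Nr1d1 at −0.92 and Nfil3 at 1.13 mark the ends of the members, and Bhlhe41 and Rora are the other clock genes called.

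Read within each library, the level of Dbp relative to Arntl was lower in Mut, and lowest in 3 of its libraries, although neither gene passed on its own. The ratio of Dbp to Arntl CPM, on the log2 scale, was 3.44, 3.70, 4.51, 3.77, 4.03 and 3.38 in WT replicates 1, 3, 4, 5, 6 and 7. In Mut replicates 1, 2, 3, 4, 5 and 7 it was 1.68, 0.10, 1.91, 3.34, 3.34 and 3.22. All 6 Mut values lay below all WT values, but Mut replicates 4, 5 and 7 lay just under the lowest WT library while Mut replicates 1, 2 and 3 lay far lower. In Mut replicate 2 the Dbp level was 1.08 times that of Arntl, against 10.4 to 22.9 times in WT. This ratio joins members of known direction, so it is given as a description with no test. How often ratios of other genes separate the groups was not computed. The log2 ratio of Nr1d1 to Arntl did overlap, at 3.57 to 5.24 in WT and 1.40 to 4.28 in Mut. WT replicate 1, at 3.57, lay below Mut replicates 4, 5 and 7 (4.28, 4.08 and 3.68).

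Nr1d1 against its target Nfil3 gave a similar picture. The log2 ratio ranged from 4.75 to 5.05 in the 5 WT libraries other than replicate 1, and was 3.48 in WT replicate 1. In Mut it was 2.13, 1.91, 1.76, 3.27, 3.95 and 3.20 in replicates 1, 2, 3, 4, 5 and 7, so Mut replicate 5 was above WT replicate 1. Per2 did not follow: the log2 ratio of Per2 to Arntl was between 4.13 and 5.14 in WT libraries and between 3.59 and 5.44 in Mut libraries. Of the 3 Mut libraries with Arntl in the WT range, replicates 4 and 5 had the highest Per2 (226 and 233 CPM) and replicate 7 the lowest of the Mut group (148 CPM).

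**Figure D3:**
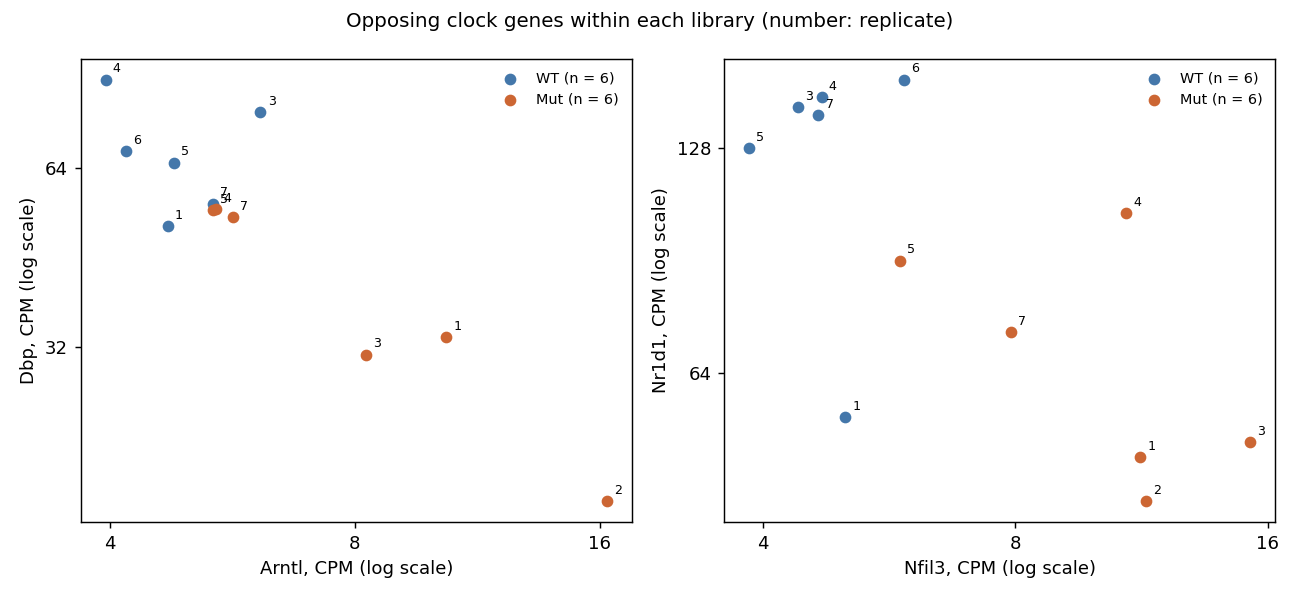
Each point is 1 library (WT blue, Mut orange, numbers are replicates), with Arntl against Dbp on the left and Nfil3 against Nr1d1 on the right, in CPM on log axes. On the left Mut replicates 1, 2 and 3 lie to the lower right, at 8.25 to 16.3 CPM of Arntl, and Mut replicates 4, 5 and 7 lie beside the WT libraries; on the right WT replicate 1 lies apart from the other WT libraries.

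The spread between libraries of one group was itself large for most members, and its width in Mut against WT differed from gene to gene. Within groups, the SD of log2 CPM of Nr1d1, Dbp, Npas2 and Arntl was 0.54, 0.51, 0.50 and 0.48, above that of 98.0%, 97.3%, 97.2% and 96.8% of 12646 genes of at least 5 CPM, whose median was 0.19. That of Clock was 0.13 (above 21.1%) and that of Tef 0.21 (above 59.2%). The highest library exceeded the lowest 1.55-fold in WT and 3.05-fold in Mut for Arntl, 1.77-fold and 3.11-fold for Dbp, and 1.53-fold and 2.62-fold for Nfil3. For 4 members the range over all libraries was narrower in Mut. It was 2.83-fold in WT and 2.43-fold in Mut for Nr1d1, 2.20-fold and 1.58-fold for Per2, 2.14-fold and 1.90-fold for Cry1, and 1.31-fold and 1.25-fold for Clock. That of Nr1d1 in WT rests on WT replicate 1, at 55.8 CPM. The other WT libraries read 128 to 158 CPM, a narrower range than the 43.0 to 105 CPM of Mut. The SD of Nr1d1 given above takes in WT replicate 1 as well. The difference in spread between groups was not tested, and the low counts of Npas2 and Arntl add counting error to theirs. Npas2, at a mean of 1.99 CPM in WT and 3.76 CPM in Mut, lies below the 5 CPM cut of the genes it was ranked against.

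In WT, where Arntl varied little, no relation between members passed with 6 libraries. 12 pairs of members were correlated within each group on log2 CPM, 24 relations in all, with an exact two-sided permutation test. None passed after Benjamini-Hochberg adjustment (lowest adjusted p = 0.111), and 5 had an unadjusted p under 0.05. In WT, Arntl and Dbp had r = −0.20 (exact permutation p = 0.697, rho = −0.26, p = 0.658, adjusted p = 0.881, n = 6). Without the 2 WT libraries farthest from the median of Arntl, r was −0.57. The lowest p in WT was that of Dbp with Per2 (r = −0.83, exact permutation p = 0.0472, rho = −0.71, p = 0.136, adjusted p = 0.227, n = 6, r = −0.88 without the farthest 2). In Mut, replicates 1, 2 and 3 and replicates 4, 5 and 7 formed separate sets in Arntl, Dbp and Nr1d1, with too few libraries in each for a correlation, so no coefficient is read from that group.

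Genes whose levels followed Dbp and Arntl from library to library were sought among 11757 of the genes of at least 5 CPM, those left after predicted genes without a standard symbol, mitochondrial genes and repeated symbols were set aside, as deviations from the group means over the 12 libraries. The 5 most like Dbp were Itgb2 (r = 0.91), Tifab (0.90), Nfam1 (0.89), Fgr (0.89) and the clock repressor Bhlhe41 (0.88); Itgb2, a leukocyte integrin, and Fgr, a myeloid kinase, are genes of white blood cells. The 5 most opposite were Ybx1 (−0.78), Ppp2r2d (−0.75), Ahcy (−0.74), Rasl11a (−0.73) and Leo1 (−0.73). Most like Arntl were Ccdc59 (0.86), Srp54b (0.79), Leo1 (0.79), Terf2ip (0.76) and Nkapd1 (0.74). Most opposite were Treml4 (−0.86), the clock gene Per3 (−0.81), Tspan4 (−0.80), Igf2bp1 (−0.80) and Itgb2 (−0.79). These coefficients take in the separate sets of Mut libraries described above. They describe 12 libraries of one bulk tissue, in which cell types were not separated.

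Of 17 other clock genes, the receptor gene Rora rose and the repressor Bhlhe41 fell. All 17 passed the filter, with 1 called higher, 1 called lower and a median log2 fold change of −0.06 (range −0.78 to 0.47), against 4.57% and 5.31% called and a median of 0.01 over all genes. Rora encodes a receptor that competes with REV-ERB alpha for the ROR element. Rora ranged from 93.8 to 139 CPM in WT and from 134 to 171 CPM in Mut, with 5 of 6 Mut libraries above every WT library (log2 fold change 0.47, SE 0.10, adjusted p = 0.00809). Bhlhe41, also named Dec2, encodes a repressor that binds E-boxes. It ranged from 14.2 to 23.9 CPM in WT and from 7.12 to 12.7 CPM in Mut, so all 6 Mut libraries lay below every WT library, as in 2.39% of all genes (−0.78, SE 0.16, adjusted p = 0.00748). It shares 1280 of 6720 exon bases with the opposite-strand gene Gm43909.

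Paralogs of the members that moved did not pass. Nr1d2, which encodes REV-ERB beta, averaged 325 ± 34.1 CPM over WT and 321 ± 67.0 CPM over Mut libraries (log2 fold change −0.02, 95% confidence interval −0.29 to 0.25). Per3 read 175 ± 10.4 and 169 ± 24.9 CPM (−0.05, interval −0.25 to 0.15), and Hlf, the sister gene of Dbp and Tef, 87.1 ± 7.96 and 87.3 ± 17.3 CPM (0.00, interval −0.24 to 0.25). Cry2 was higher on average, 82.1 ± 14.2 against 105 ± 16.9 CPM (0.36, SE 0.12, adjusted p = 0.0743, edgeR), and was called without WT replicate 1 or Mut replicate 3 or 7 (adjusted p down to 0.0265). Ciart, a repressor driven by E-boxes, read 40.6 ± 4.39 and 37.4 ± 9.92 CPM (−0.12, adjusted p = 0.635, edgeR). The remaining 10 genes, among them those of the kinases Csnk1d, Csnk1e and Gsk3b, were not called.

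**Figure D4:**
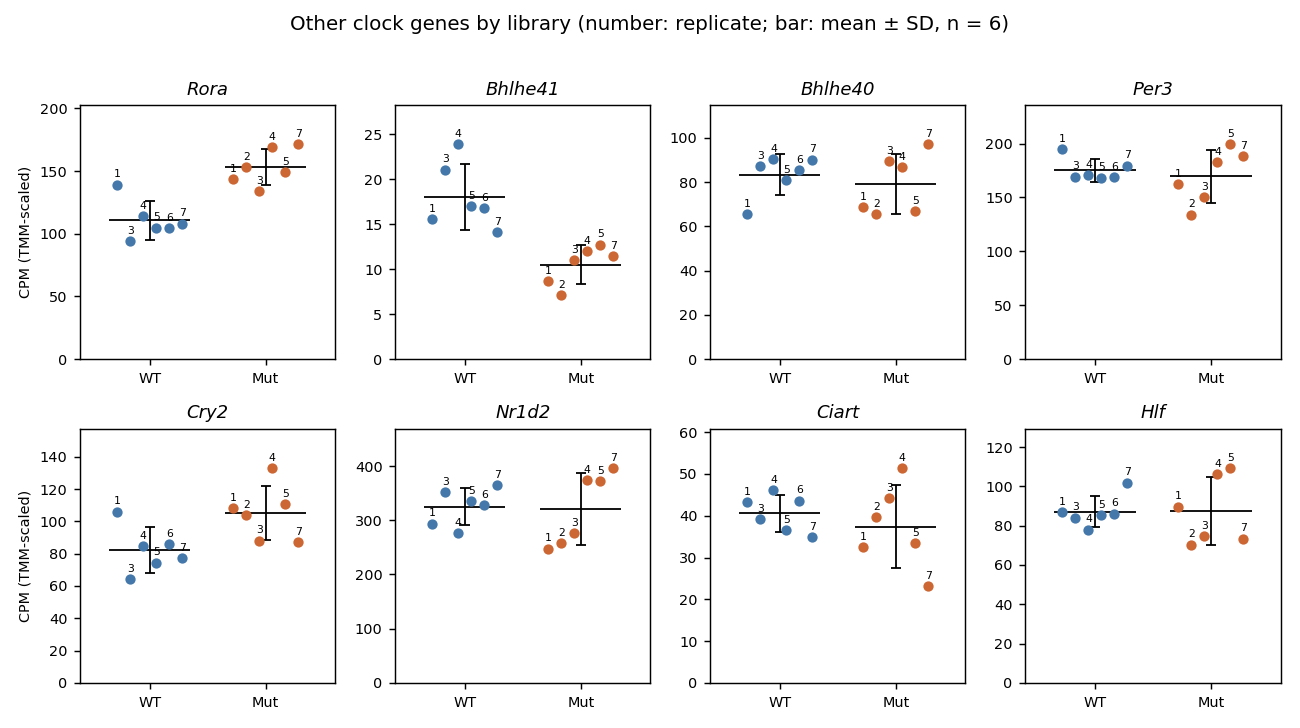
CPM (TMM-scaled, linear axis from 0) of 8 other clock genes in each library, WT in blue and Mut in orange; numbers are replicates, the horizontal bar is the mean and the whiskers are 1 SD (n = 6). Rora is higher and Bhlhe41 lower in Mut, and Per3, Nr1d2, Ciart and Hlf spread around the WT level.

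Some output genes of the clock rose, as did some genes induced by glucocorticoids, hormones that follow the time of day and also switch on Per1. Over all tested genes 4.57% were called higher, and 9785 of 19004 had a positive log2 fold change. Of 10 genes of rhythmic output 9 were tested, with 3 called higher and 0 lower (median log2 fold change 0.29): Por, cytochrome P450 reductase (209 ± 19.4 to 286 ± 37.2 CPM, 0.45, SE 0.09, adjusted p = 0.00962, higher in all 6 Mut libraries than in every WT library, as were 2.18% of all genes), Nampt, the enzyme of NAD salvage (103 ± 24.1 to 152 ± 18.6 CPM, 0.56, SE 0.13, adjusted p = 0.0186, but −0.063 with a B-cell and T-cell marker covariate), and Tsc22d3. Tspan4 was lower without passing (−0.23, adjusted p = 0.144, edgeR). Of 12 glucocorticoid-induced genes 11 were tested, and all 11 had a positive log2 fold change (median 0.58), of which 2 were called: Tsc22d3, also named Gilz (566 ± 188 to 901 ± 119 CPM, 0.67, SE 0.18, adjusted p = 0.0300), and Klf9 (229.5 ± 60.2 to 342 ± 33.7 CPM, 0.58, SE 0.15, adjusted p = 0.0249). Zbtb16 (1.64, SE 0.55, adjusted p = 0.0810) and Errfi1 (0.62, SE 0.20, adjusted p = 0.0644) did not pass.

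WT replicate 1 held these genes near the Mut level. Zbtb16 read 182 CPM in it, against 13.5 to 65.9 CPM in the other WT libraries and 106 to 318 CPM in Mut. Fkbp5, named after its values were seen, read 157 CPM in it, against 17.0 to 55.2 CPM in the other WT libraries and 40.5 to 145 CPM in Mut. Without WT replicate 1, 9 of the 11 tested genes were called higher. Leaving out WT replicate 5, Mut replicate 2 or Mut replicate 5 gave 0, and leaving out replicate 4 of either group gave 1. Since the list moved with the group, a fit with its mean level as a covariate was added after the data were seen. In it 0 of the 10 members were called, and 35 genes were higher and 18 lower over the whole table. The log2 fold changes of Nr1d1, Dbp, Per2 and Cry1 were then −0.36, −0.48, 0.40 and 0.41, closer to 0 than without the covariate. Those of Nfil3, Npas2, Arntl and Clock were 1.05, 0.85, 0.83 and 0.43. Apart from WT replicate 1 (2807 CPM), the summed levels of the list did not overlap between the groups, at 1218 to 1831 CPM in WT and 2356 to 2990 CPM in Mut. Among WT libraries, replicate 1 alone thus held the list at the Mut level. With 1 such library the part of these genes in the clock gene values cannot be told apart from the genotype. Immediate early genes (12 tested, median 0.03) and heat shock and cold-induced genes (12 tested, median 0.23) had 0 called in the edgeR fit, with 2 and 1 at an unadjusted p under 0.05. DESeq2 called 1 immediate early gene lower and limma-voom with quality weights 1 of the temperature list lower.

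**Figure D5:**
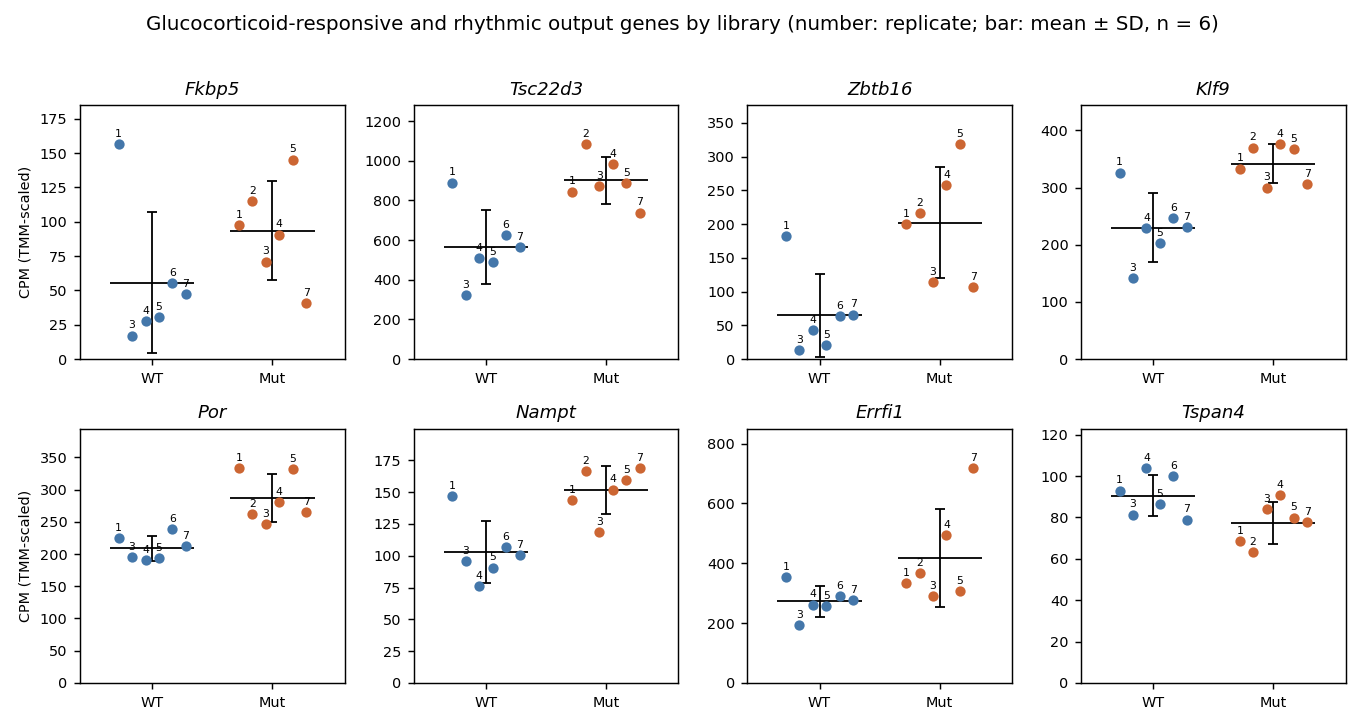
CPM (TMM-scaled, linear axis from 0) of glucocorticoid-induced and rhythmic output genes in each library, WT in blue and Mut in orange; numbers are replicates, the horizontal bar is the mean and the whiskers are 1 SD (n = 6). WT replicate 1 lies at 157 CPM in Fkbp5 and 182 CPM in Zbtb16, apart from the other WT libraries, and Por is higher in every Mut library than in any WT library.

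Marker levels of several cell types differed between the groups as well; in bulk tissue fewer cells of a type and less RNA per cell cannot be told apart. All 8 B-cell markers and 7 of 8 T-cell markers were called lower, where 5.31% of all tested genes were called lower and 4.57% higher. Summed B-cell levels were 425 to 817 CPM in WT and 244 to 391 CPM in Mut. Summed T-cell levels were 116.6 to 173.6 CPM in WT and 67.4 to 116.4 CPM in Mut, so the groups barely separated. Of 7 red cell markers tested 7 were lower (summed 983 to 5889 CPM in WT and 154 to 821 CPM in Mut), as were 8 of 8 genes of dividing cells (149 to 216 and 88.6 to 155 CPM). Of 8 airway markers 3 were called higher (Bpifa1, Gp2 and Muc5b, log2 fold changes 3.21, 3.14 and 1.80). The 8 summed to 13430 to 22673 CPM in WT and 10572 to 20502 CPM in Mut. Most of that sum was Scgb1a1 (16200 ± 3078 and 14569 ± 2779 CPM), which was not called. Of 6 tested fat markers 3 were called higher (summed 12.8 to 57.9 and 30.2 to 205 CPM). Of 8 heart muscle markers 0 were called, but all 8 had a positive log2 fold change (median 0.92, summed 171 to 738 and 282 to 1785 CPM). With the mean level of the airway, fat and heart markers as a covariate, Per2 and Nfil3 were called higher and no member lower. The log2 fold changes of the members no longer called were 0.36 for Clock, 0.72 for Cry1, 0.79 for Npas2 and −0.72 for Nr1d1. The summed B-cell and T-cell levels did not overlap between the groups, narrowly so for T cells. With the mean level of these markers on the log2 scale as a covariate, 0 members and 7 genes in all were called. Nfil3, Npas2 and Arntl then had log2 fold changes of 1.41, 1.49 and 1.05, larger than without it, and Nr1d1, Clock, Per2 and Cry1 had −0.59, 0.16, 0.18 and 0.24, closer to 0. The part of lymphocyte RNA in the clock gene values cannot be told apart from the genotype where the marker levels separate the groups.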

How the data were processed

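Messenger RNA of mouse lung was sequenced in 12 libraries, 6 WT and 6 Mut, grouped by the genotype label. The authors deposited a table of raw counts per gene and a table of FPKM (fragments scaled by gene length and library size). Per the submitters' processing notes the build was mm10 and limma was used, with no role given; the aligner, counter and strand setting are not given in the sources used here. Entries without a GENCODE ID (0.589% to 0.872% of counts) were kept in the library totals and in the edgeR fit. They were left out of the search for genes like Dbp and Arntl.

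Counts were tested with edgeR 4.0.16 (R 4.3.3; TMM scaling, filterByExpr with a minimum count of 10 and total of 15, quasi-likelihood F test, no covariates, Benjamini-Hochberg adjustment over 19004 genes, threshold 0.05). Log2 CPM used a prior count of 0.5. DESeq2 1.42.0, limma 3.58.1, other scalings and filters, log2(FPKM + 1) and log2(FPKM + 0.1), a replicate block, marker covariates and each library left out were alternatives. On simulated data for Mut against WT (19004 genes) 25 of 50 genes changed 1.5-fold were recovered, 39 of 50 at 2-fold, 49 of 50 at 3-fold and 50 of 50 at 4-fold, with 7 false among 170 calls. No pair of libraries was alike within sampling noise. Ratios of members within a library are on CPM.

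The members and lists were chosen with earlier results of these data known. Genes named are all members, any other clock gene, up to 4 tested genes of each further list with the smallest p, and the 5 genes most like and 5 most opposite to Dbp and Arntl of at least 5 CPM. Of 137 list entries 136 were found. Some genes of the lists are not reported here.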

Additional observations from a re-analysis of the deposited data

Results flagged for a closer look

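Of 56 groups of 6 libraries tested for a library far from the rest of its group (Dixon's test), 5 held one, and chance gives about 1 in 20. 4 of the 5 were WT replicate 1. It read 55.8 CPM of Nr1d1, where the nearest WT library read 128 CPM. It read 182 CPM of Zbtb16 (nearest 65.9 CPM) and 157 CPM of Fkbp5 (nearest 55.2 CPM). Its log2 ratio of Nr1d1 to Nfil3 was 3.48 (nearest 4.75). The other was Mut replicate 7, with 30.9 CPM of Cry1 (nearest 48.9 CPM). The 56 groups were not independent, so the flags cannot be counted as separate against chance. The ratio takes in the Nr1d1 value, and Fkbp5 was named after its values were seen.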

How the results depend on the processing

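Limits: a time of collection is not given in the sources used here, 6 libraries a group left most member calls dependent on single libraries, and Npas2 and Arntl rest on few reads. Nfil3 was called in 24 of 26 alternatives, Clock in 21, Cry1 in 14, Per2 and Nr1d1 in 11, Npas2 in 10 of 25, Dbp in 7 of 26 and Arntl in 5 of 25.

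Over all genes, library totals alone called 518 higher, limma-voom with quality weights 2201 higher and 2151 lower, log2(FPKM + 1) 339 higher and log2(FPKM + 0.1) 259 higher. The airway, fat and heart covariate gave 297 higher and 404 lower, the B-cell and T-cell covariate 7 and 0, and the glucocorticoid covariate, chosen after seeing the data, 35 and 18. Replicate numbers did not pair the samples: same-numbered libraries correlated at −0.19 to 0.12 in their deviations and 0 of 5 correlated best with its own number. The fit with the replicate block called 74 genes higher and 33 lower, with 1 member higher (Nfil3) and 0 lower.

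Members called higher numbered 3 with library totals and with no filter, 2 with log2(FPKM + 1) and with the airway, fat and heart covariate, 1 with log2(FPKM + 0.1), and 0 with either other covariate. Members called lower numbered 2 (Nr1d1 and Dbp) with library totals, DESeq2, limma-voom with and without weights and log2(FPKM + 1), and 0 with no filter, log2(FPKM + 0.1) and each covariate. Other clock genes were 0 higher and 0 lower with the block and the lymphocyte and glucocorticoid covariates, and 2 higher with quality weights. Output genes called higher were 1 with log2(FPKM + 0.1) and 0 with the block and each covariate, and 1 was lower with quality weights. Glucocorticoid genes called higher were 1 with no filter, 4 with DESeq2, 8 with quality weights, and 0 with log2(FPKM + 0.1), the block and each covariate. DESeq2 called 1 immediate early gene lower and quality weights 1 temperature gene lower. Without each library in turn, genes called ranged from 401 to 1163 higher and 556 to 1205 lower, members from 2 to 6 higher and 0 to 2 lower, other clock genes from 1 to 2 higher, glucocorticoid genes from 0 to 9, immediate early genes higher from 0 to 1 and temperature genes lower from 0 to 1.

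Some genes changed sign, most of them near 0. Per1 was −0.018 with upper-quartile scaling, −0.041 with library totals, −0.048 and −0.050 on log2(FPKM + 1) and log2(FPKM + 0.1) and −0.18 with the glucocorticoid covariate (−0.059 to 0.11 without each library). Tef was −0.026 and −0.051 with those scalings, −0.0053 with no filter, −0.0079 with limma-voom, −0.00065 with weights, −0.067 and −0.068 on the FPKM scales, −0.27 with the lymphocyte and −0.13 with the glucocorticoid covariate (−0.077 to 0.078). Hlf was −0.0032 with RLE scaling and DESeq2, −0.031 and −0.057 with upper quartile and totals, −0.013 with no filter, −0.014 with limma-voom, −0.0031 with weights, −0.068 and −0.074 on the FPKM scales, −0.0024 with the lymphocyte and −0.026 with the glucocorticoid covariate (−0.074 to 0.060). Nr1d2 was 0.022 with the block, 0.097 with the airway, fat and heart and 0.11 with the glucocorticoid covariate (−0.089 to 0.046), Per3 ranged from −0.098 to 0.013, and Ciart was 0.016 and 0.026 with the tissue and lymphocyte covariates. Away from 0, Nampt turned to −0.063, Errfi1 to −0.15 and Thra to 0.020 with the lymphocyte covariate. The WT correlation of Arntl with Cry1 was −0.049, that of Nr1d1 with Nfil3 0.88 and the Mut correlation of Arntl with Clock −0.0038 without the 2 farthest libraries. Arntl with Nr1d1 in WT was 0.025 on log2(FPKM + 1) and 0.0022 with library totals. The cause was not tested. The median log2 fold change of all genes lay between −0.055 and 0.034.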
